A study of Arabidopsis thaliana with 2 samples.

Results

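The genes described here are 28 regulators of the bZIP, bHLH, WRKY and NAC families, chosen by their symbols. They are among the 8819 named genes of a microarray comparison of Arabidopsis thaliana siliques. A gene belonged to the set when its probe mapped to exactly 1 gene and its current symbol began with BZIP, BHLH, MYB, WRKY, NAC, ANAC, HB or WOX followed by a digit, and EEL (AT2G41070), a bZIP gene under another name, was added. This rule is met by 351 genes of the gene table. The named probes covered 12 of 31 bZIP genes, 6 of 13 bHLH genes, 9 of 67 WRKY genes and 1 of 81 NAC genes. These totals count the genes that meet the rule, not whole families, so members under other names are left out. MYB genes (0 of 120) and HB and WOX homeobox genes (0 of 39) carried no named probe and were not analysed here. Each of the 28 genes was read by 1 probe.

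The siliques, the seed-bearing fruits, came from the rge1-1 mutant, whose embryos grow slowly, and from the Col-0 wild type at 12 DAF, both untreated and kept at 22 °C in long days (16 h light, 8 h dark). Each of 2 replicate 2-colour arrays was hybridised with rge1-1 RNA labelled with Cy3 and with Col-0 RNA labelled with Cy5, and 0 arrays had swapped dyes, so a dye bias of a probe cannot be told apart from the genotype. rge1-1 is a single allele, and the labels do not say how many plants were pooled or whether the replicates are separate biological samples. The p-values therefore rest only on differences between these 2 arrays, in the gene itself and pooled over all rows. Such differences may be technical. The deposited log ratio does not say which genotype is on top. Every sign below is therefore the sign as deposited and is assigned to neither genotype. All log2 values and folds take the deposited values to be log10, which is likely but not stated. Because the ratios came from whole fruits, fewer cells of a type and less RNA per cell cannot be told apart.

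Members of these families bind DNA and switch genes on or off. bZIP factors bind as pairs through a leucine zipper, and partner choice decides much of their activity; in seeds, bZIP53 pairs with other bZIP factors and acts with ABI3 on genes for storage and late embryogenesis abundant proteins. bHLH factors, the family of RGE1 itself, also act as dimers. WRKY factors are best known from defence, senescence and nutrient responses, and NAC factors from development and stress. RGE1, whose symbol does not meet the rule, was not among the named genes, so neither the genotype nor the order of the ratio could be checked on it.

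Of the 28 regulators 0 passed the test, and their larger ratios lay mostly on replicate 1. limma, fitted over all 21426 rows of the table with Benjamini-Hochberg adjustment, gave 0 regulators an adjusted p under 0.05, as it did for 0% of all rows, and the adjusted p of the 28 genes ran from 0.665 to 0.98. At an unadjusted p under 0.05 limma counted 2 of the 28, bZIP43 and WRKY20, against 6.54% of the named genes. Counted by size, 1 regulator, bZIP43, was 1.5-fold or more from equal on both arrays in the same direction (2.56% of the named genes), and 0 were at least 2-fold (0.703%). Read against these shares, neither count sets the regulators apart. On single arrays the counts at 1.5-fold differed: 7 of 28 on replicate 1 (16.3% of the named genes) and 1 of 28 on replicate 2 (6.47%). The median absolute log2 ratio of the 28 genes was 0.34 on replicate 1, against 0.26 for all named genes, and 0.15 on replicate 2, against 0.13. Of the 28 genes, 12 lay within 0.3 of equal on the log2 scale on both arrays. The share of all named genes within this limit was not counted, so the 12 cannot be called many or few.

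**Figure D1:**
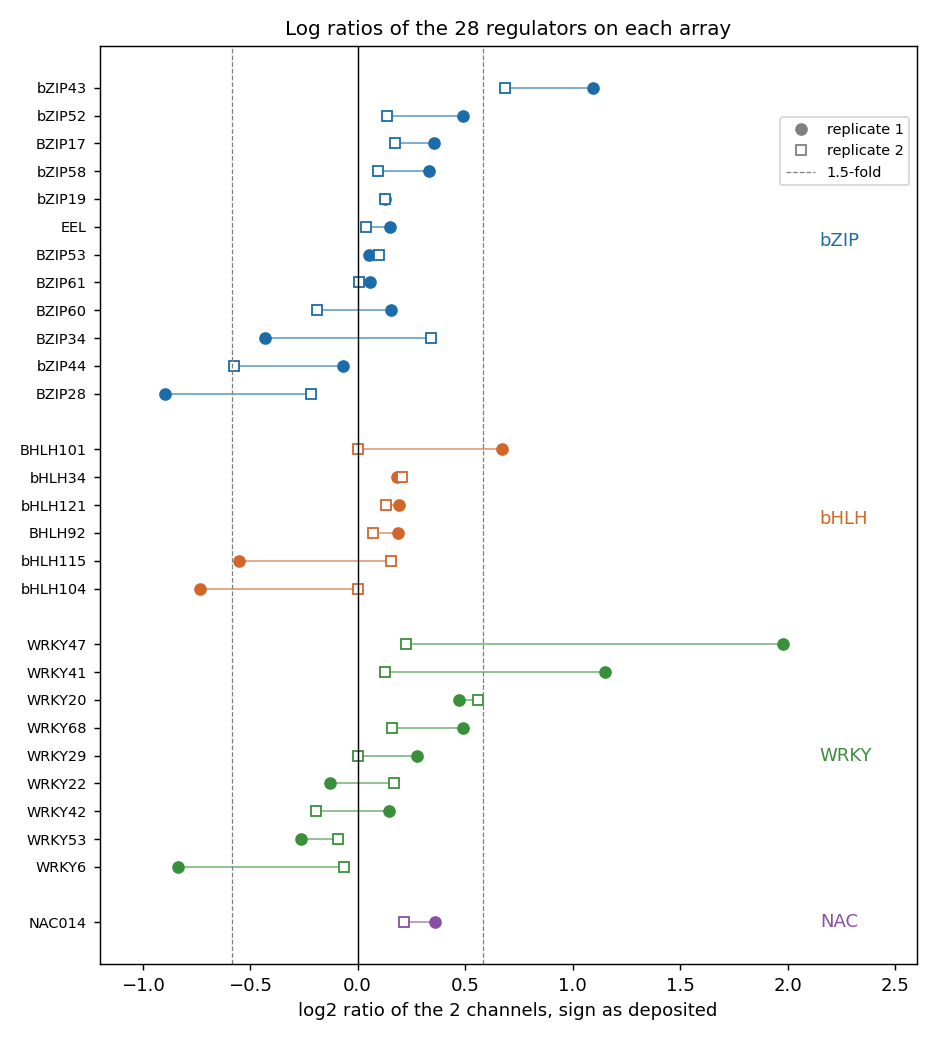
Log2 ratio of each of the 28 regulators on replicate 1 (filled circles) and replicate 2 (open squares), by family and ordered by mean, with dashed lines at 1.5-fold. bZIP43 is the gene with both arrays beyond 1.5-fold on the same side, and WRKY47 has the widest gap between arrays, with 1.98 on replicate 1 and 0.22 on replicate 2.

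The regulators of seed maturation were among the genes closest to equal. BZIP53 (AT3G62420), an activator of seed maturation genes, had a log2 ratio of 0.053 on replicate 1 and 0.098 on replicate 2. Its mean of 0.076 ± 0.032 (SD, n = 2) is a 1.05-fold ratio. Both arrays were slightly positive, but centring each array on its median turned the mean to -0.016, since replicate 1 as a whole had a median of 0.16. EEL, which competes with the bZIP factor ABI5 for the promoter of an Em gene, a late embryogenesis abundant gene, had log2 ratios of 0.15 on replicate 1 and 0.042 on replicate 2, with a mean of 0.095 ± 0.076 (SD, n = 2). Centring brought the mean of EEL to 0.0041. In limma's fit the 95% interval of the log2 ratio ran from -0.30 to 0.45 for BZIP53 and from -0.29 to 0.48 for EEL. In folds, these intervals reach 1.23-fold negative and 1.36-fold positive for BZIP53, and 1.22-fold negative and 1.39-fold positive for EEL. The limma adjusted p was 0.797 for BZIP53 and 0.756 for EEL. Of the 11 seed maturation and abscisic acid bZIP genes listed, these were the 2 with a named probe, and 0 of their 5 listed partners, among them ABI3, FUS3 and LEC2, had one.

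bZIP43 (AT5G38800) had the ratios furthest from equal on both arrays at once. Its log2 ratio was 1.096 on replicate 1 and 0.68 on replicate 2, with a mean of 0.89 ± 0.29 (SD, n = 2), or 1.85-fold. Among the named genes it stood at percentile 98.5 on replicate 1 and 98.4 on replicate 2. The 95% interval in limma's fit, from 0.36 to 1.42, did not reach 0, yet over all rows the adjusted p was 0.665 (unadjusted p = 0.013), and 3.20% of the named genes had a larger absolute mean.

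bZIP44 (AT1G75390), which like BZIP53 belongs to the small S1 group of bZIP factors, stood on the other side of equal, with -0.066 on replicate 1 and -0.57 on replicate 2. Its value on replicate 2 fell just short of 1.5-fold, and its value on replicate 1 was near equal. bZIP52, bZIP58 and bZIP19 were positive on both arrays. bZIP52 was 0.49 on replicate 1 and 0.14 on replicate 2, and bZIP58 was 0.33 and 0.094. bZIP19, a regulator of the response to zinc deficiency, was 0.13 on both arrays, and its arrays differed by 0.0033, the smallest gap of the 28 genes.

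The bZIP factors of the endoplasmic reticulum, which are activated when unfolded proteins accumulate there, did not share a sign. BZIP28 (AT3G10800) and BZIP17 (AT2G40950) are held in the membrane and released by cleavage, and the messenger RNA of BZIP60 (AT1G42990) is spliced by IRE1. BZIP28 was -0.90 on replicate 1 and -0.22 on replicate 2, a mean of -0.56 ± 0.48 (SD, n = 2), the most negative mean of the 28 genes. BZIP17 was positive on both arrays, with 0.36 and 0.17 on replicates 1 and 2. BZIP60 was 0.16 on replicate 1 and -0.19 on replicate 2. BZIP28 was thus negative on both arrays, BZIP17 positive on both and BZIP60 of opposite signs. limma's adjusted p was 0.665 for BZIP28, 0.665 for BZIP17 and 0.98 for BZIP60.

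The related genes BZIP34 and BZIP61 had means close to equal, -0.045 and 0.031, and were not tested against each other. BZIP34 (AT2G42380), needed for the pollen wall, was -0.43 on replicate 1 and 0.34 on replicate 2, the widest gap between arrays among the bZIP genes. BZIP61 was near equal on both, with 0.056 and 0.0061. Over the 12 bZIP genes 8 were positive on both arrays (41.9% of the named genes), 2 negative on both (17%) and 2 of opposite signs (38.5%). Against the median of all named genes, 4 of the 12 lay above it on both arrays (30.4% of the named genes). The bZIP counts were not tested against these shares.

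Of the 6 bHLH genes 5 belong to the network that senses iron deficiency. bHLH34, bHLH104 and bHLH115 are close relatives that act high in this network, bHLH121 is their partner, and BHLH101 is one of the genes they switch on. bHLH34 (AT3G23210) was 0.18 on replicate 1 and 0.21 on replicate 2, and bHLH121 (AT3G19860) was 0.19 and 0.13. These were small positive ratios with arrays close together, with means of 0.19 ± 0.016 and 0.16 ± 0.040 (SD, n = 2 each), which centring lowered to 0.10 and 0.072. bHLH115 was -0.55 on replicate 1 and 0.16 on replicate 2.

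bHLH104 (AT4G14410) and BHLH101 (AT5G04150) both hold a value of exactly 0 on replicate 2. On replicate 1 they stood on opposite sides of equal, bHLH104 at -0.73 and BHLH101 at 0.67. An exact 0 occurred on either array in 2.68% of the named genes, and whether such a 0 is a measured ratio could not be checked, because scanner intensities were not used here. The means of -0.37 for bHLH104 and 0.34 for BHLH101 include these zeros. Among the 13 listed iron genes 7 had a named probe, and the pair that are not among the 28, PYE and ILR3, stood at 0.28 ± 0.057 and 0.0015 ± 0.21 (SD, n = 2 each). Of these 7 genes 3 were positive on both arrays (41.9% of the named genes), and 0 were negative on both (17% of the named genes). limma gave 0 of them an adjusted p under 0.05 (0% of the named genes), and 0 an unadjusted one (6.54%). With so few genes these counts do not set the list apart. BHLH92, a gene of the osmotic stress response, was 0.19 on replicate 1 and 0.071 on replicate 2.

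The WRKY genes had the widest spread of the families on replicate 1, with an SD over genes of 0.82 against 0.22 on replicate 2. WRKY47 (AT4G01720) was 1.98 on replicate 1, higher than 99.9% of the named genes there, and 0.22 on replicate 2. Its mean of 1.102 ± 1.24 (SD, n = 2) was the largest of the 28 genes, but the gap of 1.76 between its arrays exceeded the mean itself. WRKY6 and WRKY42, repressors of the phosphate exporter gene PHO1, belong to the same subgroup as WRKY47. WRKY6 (AT1G62300) was -0.83 on replicate 1 and -0.064 on replicate 2, and WRKY42 was 0.15 and -0.19. The subgroup thus held both ends of the WRKY range on replicate 1.

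WRKY20 (AT4G26640) was the WRKY gene with the smallest gap between arrays, 0.086. It was 0.47 on replicate 1 and 0.56 on replicate 2, both just under 1.5-fold, with a mean of 0.51 ± 0.061 (SD, n = 2), or 1.43-fold. Its 95% interval in limma's fit was 0.14 to 0.89, and its adjusted p was 0.665 (unadjusted p = 0.0227). Centring lowered its mean to 0.42.

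WRKY41 (AT4G11070), a regulator of ABI3 and of seed dormancy, was 1.15 on replicate 1 and 0.13 on replicate 2, so its mean of 0.64 ± 0.72 (SD, n = 2) rests mostly on replicate 1. WRKY53 (AT4G23810), a senescence regulator of the same subgroup, was negative on both arrays, with -0.26 and -0.090. WRKY22 and WRKY29 act downstream of a kinase cascade started by bacterial flagellin. WRKY22 was -0.13 on replicate 1 and 0.17 on replicate 2, and WRKY29 was 0.28 and 0.0035. WRKY68 was 0.49 on replicate 1 and 0.16 on replicate 2. Over the 9 WRKY genes 5 were positive on both arrays (41.9% of the named genes), 2 were negative on both (17%) and 2 had opposite signs (38.5%). Above the median of all named genes on both arrays lay 4 of the 9 (30.4% of the named genes). The WRKY counts were not tested against these shares. NAC014 (AT1G33060), the 1 NAC gene, was 0.36 on replicate 1 and 0.22 on replicate 2, with a mean of 0.29 ± 0.10 (SD, n = 2) and a limma adjusted p of 0.665.

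**Figure D2:**
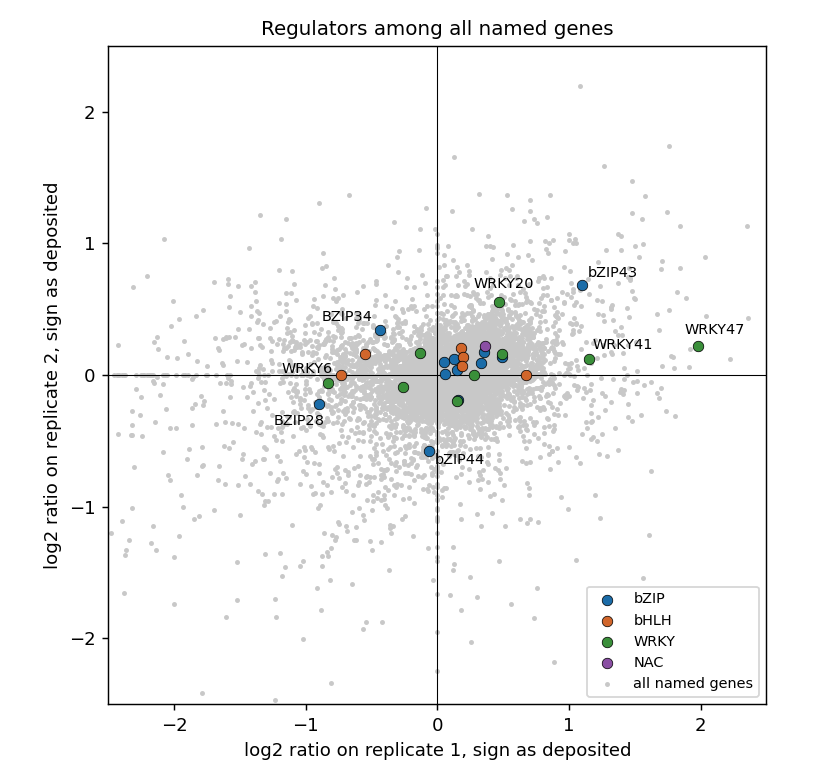
Log2 ratio on replicate 2 (y axis) against replicate 1 (x axis) for the 28 regulators, coloured by family, and for all named genes in grey, of which 37 lie beyond the plotted limit of 2.5. bZIP43 lies in the upper right with both ratios positive, whereas WRKY47 and WRKY41 lie far along the axis of replicate 1 and near 0 on that of replicate 2.

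Between arrays, the median gap of the 28 regulators was 0.31 in log2 units, against 0.25 for all named genes. In 21 of the 28 the absolute ratio was larger on replicate 1, as it was in 71.4% of the named genes. Across the 28 genes Pearson's r between the arrays was 0.41 and Spearman's rho 0.48. The genes share both arrays and are not independent replicates. Without bZIP43 and WRKY47 Pearson's r over the other 26 genes was 0.29. Across all named genes, with none left out, Pearson's r was 0.33 and Spearman's rho 0.25.

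The medians of the bZIP, bHLH and WRKY genes lay inside the middle 50% of all named genes on both arrays. That range describes single genes, and a median over several genes varies less, so its place there cannot decide on a shift. On replicate 1 the median log2 ratio was 0.14 for bZIP, 0.18 for bHLH and 0.28 for WRKY genes, against 0.16 for all named genes. On replicate 2 it was 0.096 for bZIP, 0.10 for bHLH and 0.13 for WRKY genes, against 0.021 for all named genes. Taken on the mean of both arrays, the median of the 28 regulators exceeded that of all named genes by 0.047, with an excess of 0.011 on replicate 1 alone and 0.091 on replicate 2 alone. For bHLH genes the excess was 0.065 on the mean, 0.025 on replicate 1 and 0.082 on replicate 2. For WRKY genes it was 0.059 on the mean, 0.12 on replicate 1 and 0.10 on replicate 2, and on the mean it turned to -0.0015 when ZAP1, a WRKY gene by its synonyms, was counted with them. For bZIP genes it was 0.0042 on the mean, -0.020 on replicate 1 and 0.075 on replicate 2. Without values of exactly 0 the bZIP excess on the mean turned to -0.00033. Since 0 of the bZIP genes held such a value, only the median of all named genes had moved. The difference between families was not tested, since with 2 arrays the smallest p that an exact two-sided sign-flip test allows is 0.5.

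Positive signs on both arrays were more frequent among the 28 regulators than among all named genes, a difference that was not tested. Of the 28, 17 (60.7%) were positive on both arrays, against 41.9% of the named genes, 4 were negative on both (17% of the named genes), 5 had opposite signs (38.5%) and 2 held an exact 0. The median of replicate 1 was itself positive. Of the 28 genes, 12 lay above the median of all named genes on both arrays, against 30.4% of the named genes. These shares are descriptions without a test.

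**Figure D3:**
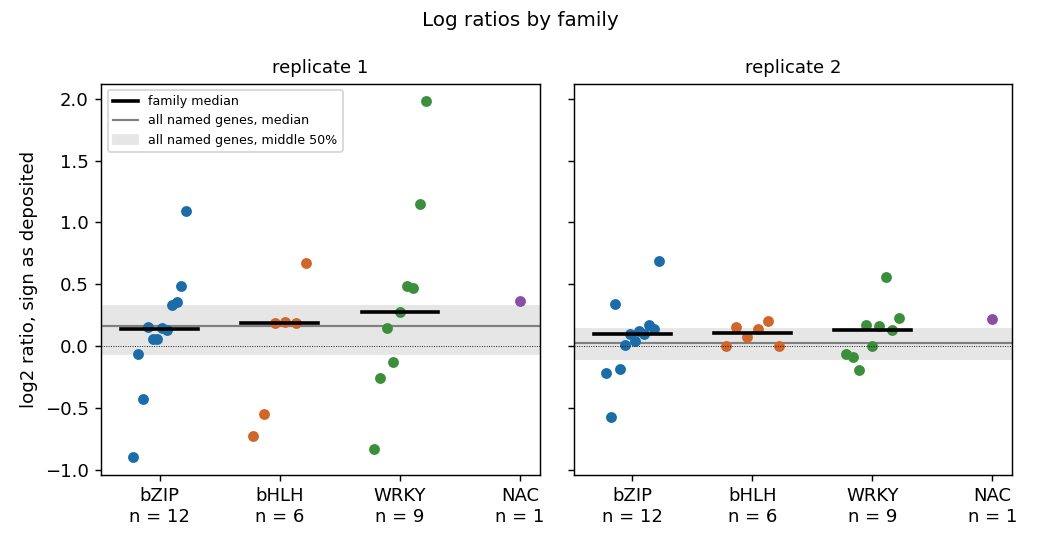
Log2 ratio of each regulator by family on replicate 1 (left) and replicate 2 (right), with black bars at the family medians, a grey line at the median of all named genes and a grey band over their middle 50%. The medians of the bZIP, bHLH and WRKY genes lie inside the grey band on both arrays, and single genes lie far outside it mainly on replicate 1. The band describes single genes and is wide for a median.

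Of the 16 lists of regulators by role, with 227 genes, 10 had a named gene, and these held 21 genes, of which 11 are among the 28. By limma 0 of the 21 had an adjusted p under 0.05 (0% of the named genes). An unadjusted p under 0.05 was found for 1, the fruit opening gene ALC (6.54% of the named genes). With so few genes these counts do not set the lists apart. The defence list of 22 genes was represented by WRKY22, WRKY29 and WRKY53, with a median of their means of 0.019. The senescence list of 13 genes was represented by WRKY6 and WRKY53, both negative on both arrays (17% of the named genes). Their median of -0.31 is the midpoint of 2 genes, and WRKY6 was -0.83 on replicate 1 and -0.064 on replicate 2. The lists of seed coat, secondary wall, glucosinolate, flavonoid and cell cycle regulators had 0 named genes. The tissues in the fruit could be followed only by ratio, not by level, so the labelled tissue was not checked against its markers. Of 37 marker symbols of endosperm, embryo, seed coat and fruit wall 12 were named. On both arrays 1 was positive (41.9% of the named genes) and 4 were negative (17%). Medians of the means ran from -0.39 for the endosperm to 0.049 for the seed coat, each over 3 genes. The endosperm median is the mean of AGL38, which was -0.79 on replicate 1 and 0.0011 on replicate 2. The part of these tissues in the regulators' ratios was not tested.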

How the data were processed

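The authors deposited 1 table with a log10 ratio of the 2 channels for 21500 probes on each of 2 arrays. The software named in the submitters' processing notes is Agilent Feature Extraction 7.1.1. Not given in the sources used here are its settings, the base of the logarithm and the order of the ratio. Base 10 was assumed. The values carry signs, 3 significant digits and, on replicates 1 and 2, 386 and 474 zeros, a form that does not settle the base. Probes were named from the platform annotation, updated by gene ID to the TAIR10.1 gene table: 8893 had 1 gene, 39 had several and 12568 were unnamed here. Of the named probes 8875 matched the gene table. Values were turned to log2 without centring (medians 0.16 and 0.022), and probes of 1 gene were averaged, giving 21426 rows.

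The test of each row against 0 used limma 3.58.1 (R 4.3.3, intercept only, eBayes, two-sided, Benjamini-Hochberg over all rows), with 1 residual and 1.97 prior degrees of freedom. The number of arrays limits the precision. Members and lists were chosen with earlier results of these data known. The naming rule took BZIP53, EEL, the 3 largest means of 1 sign and the widest gap per family, genes past 2-fold and up to 2 genes per role list, 18 genes in all. The other 10 regulators are given so that each of the 28 has its values. Alternatives changed centring, scaling, zeros, moderation, probe averaging, the base and the matching rule.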

Additional observations from a re-analysis of the deposited data

How the results depend on the processing

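The running median along probe IDs and the zero filter combined with centring were added after seeing the data. In limma 0 regulators were called under all 9 alternatives run for it, with a lowest adjusted p among the regulators of 0.168 without values of exactly 0 and between 0.417 and 0.808 in the other refits of the same 28 genes or their zero-free subset. Over all rows, limma called 55 without values of exactly 0, and 0 without these values on centred arrays; the cause was not tested. The count of 1 regulator at 1.5-fold was 0 with the values read as log2, and between 1 and 7 with 1 replicate left out. The count of 0 at 2-fold was between 0 and 3 with 1 replicate left out. With a single array no agreement of sign is required, so these counts cannot fall by construction. The excess of the WRKY median over all named genes was 0.048 with scaling and -0.0015 when the rule was matched on synonyms, which adds 1 WRKY gene, and with 1 replicate left out it was between 0.10 and 0.12. That of all 28 regulators was between 0.011 and 0.091 with 1 replicate left out, and that of the bHLH median between 0.025 and 0.082. That of the bZIP median was between -0.020 and 0.075 with 1 replicate left out, -0.0088 after the running median and -0.0080 with synonyms. Of the 18 genes under the naming rule, 17 kept the sign of their mean with centring, 18 with scaling, 16 after the running median and between 15 and 18 with 1 replicate left out, BZIP53 turning to -0.016 with centring and to -0.041 after the running median, and EEL to -0.0041 after the running median. No paired analysis was possible because the 2 arrays form 1 group of ratios, with no other group to share a replicate block. Each ratio already sets the genotypes against each other within an array. The 2 arrays limit what can be told from noise.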

Other observations

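Further members of these families sit on the arrays under other symbols. A match on synonyms finds only part of them, and PYE, listed with the iron deficiency bHLH factors, is not found. Matching the rule on synonyms added 11 genes, whose mean log2 ratios ran from -0.17 to 0.45. On both arrays 5 were positive (41.9% of the named genes) and 2 negative (17%). limma gave 0 of the 11 genes an adjusted p under 0.05 (0% of the named genes) and 0 an unadjusted one (6.54%). With so few genes these counts do not set the 11 apart. Among them were FD, the bZIP partner of the flowering signal FT, at 0.071 ± 0.014, PHV, a homeobox gene of organ polarity, at 0.18 ± 0.036, and ZAP1, also known as WRKY1, at -0.069 ± 0.065 (SD, n = 2 each). These genes were singled out after their values were seen.

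Besides bHLH104 and BHLH101, other genes at exactly 0 on replicate 2 had a ratio on replicate 1. Of 164 named genes with 1 probe at exactly 0 on replicate 2, 67 were also at 0 on replicate 1 and 97 were not. In the other direction, 69 named genes with 1 probe were at exactly 0 on replicate 1 only. For the 97 genes at 0 on replicate 2 only, the median absolute log2 ratio on replicate 1 was 1.11, against 0.26 for all named genes. This was seen after the data were examined and was not tested.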
